A study of Mus musculus with 15 samples.

Results

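The 45 genes described here encode the Wnt ligands, their receptors and co-receptors, the R-spondins, the secreted inhibitors of the pathway and the feedback gene Axin2. The rule that defines them uses gene symbols and no measured value, taking all Wnt, Fzd, Sfrp, Dkk and Rspo genes with a numbered name together with Axin2, Lrp5, Lrp6, Notum and Wif1, out of 18929 mouse genes in the deposited table. By role they comprise 18 Wnt ligands, 10 Frizzled receptors, 2 Lrp co-receptors, 4 R-spondins, 10 secreted inhibitors and Axin2. Of these, 39 had enough reads to be tested. The other 6 were Dkk1, Dkk4, Wnt1, Wnt7a, Wnt8a and Wnt9b.

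Wnt ligands bind Frizzled receptors together with Lrp5 or Lrp6, which stabilizes β-catenin and lets it switch on target genes with TCF/LEF factors, or they act through Frizzled and other receptors on cell polarity and movement without β-catenin. R-spondins keep Frizzled receptors at the cell surface, and the secreted inhibitors capture Wnts (Sfrp proteins, Wif1), block the Lrp co-receptors (Dkk1, Dkk2, Dkk4) or remove the lipid that Wnts need for binding (Notum). In skin, Wnt signaling is known for starting hair follicles in the embryo, for driving their growth phase in the adult and for its part in follicle formation within large wounds.

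RNA was sequenced from the dorsal skin of WT balb/c mice (by the methods male, and 4 to 6 weeks old at the time of wounding), with 3 samples in each of 5 groups. The 4 wound groups were skin healed after full-thickness excision of 10 mm or 15 mm, filled either with acellular Matrigel beads or with high-density beads (HDB), which carry human mesenchymal stem cells (MSCs) and were printed sparsely among acellular beads. By the methods, the HDB wounds received 84000 MSCs at 10 mm and 180000 at 15 mm, and the fifth group was normal skin. Every wound sample thus carried Matrigel, and a wound left without a bead implant was not analysed here, so that healing and implant cannot be told apart. The methods name both 4 weeks of implantation and day 21 for the skin samples. HDB samples are labelled as skin with MSCs, and the part of human reads in the mouse gene counts was not tested. Nothing in the labels says that samples of a group came from separate animals, so p-values measure the spread between these samples.

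Total counts were between 15840542 and 18404177 per sample. The skin label was checked with cell type markers, given here as ranges of summed CPM (counts of a gene scaled to a common library size by the TMM method). Basal epidermis markers lay between 4520 and 15900 CPM and dermal fibroblast markers between 3450 and 24000. Skeletal muscle markers, which the muscle layer under mouse skin expresses, lay between 42900 and 51900 in normal skin and between 630 and 30400 in wounds. Replicate 1 of the acellular 15 mm group stood apart. It was the highest or lowest of all 15 samples in 51.6% of the genes tested, and its hair shaft and matrix markers summed to 16900 CPM, against 33.3 to 1380 in the other wound samples and 14.5 to 15.6 in normal skin. Where leaving it out ended a call or moved a printed value by over 1.5 times, the value without it is given.

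The promoters of 4 members that changed between healed and normal skin are shown first. They were picked among the called members with a RefSeq promoter, to set receptors and a ligand that rose beside a receptor that fell. Each is the 250 bases before the RefSeq gene start in GRCm38.p6, written 5′ to 3′ on the strand of the gene. Capitals mark the letters CTTTGA or CTTTGT on either strand, the core that TCF/LEF factors recognize. Fzd1 (chr5:4758217-4758466, minus strand) and Fzd7 (chr1:59481897-59482146, plus strand) encode Frizzled receptors that were higher in wounds. Wnt4 (chr4:137277385-137277634, plus strand) was also higher, and Fzd4 (chr7:89404116-89404365, plus strand) was lower.
Fzd1: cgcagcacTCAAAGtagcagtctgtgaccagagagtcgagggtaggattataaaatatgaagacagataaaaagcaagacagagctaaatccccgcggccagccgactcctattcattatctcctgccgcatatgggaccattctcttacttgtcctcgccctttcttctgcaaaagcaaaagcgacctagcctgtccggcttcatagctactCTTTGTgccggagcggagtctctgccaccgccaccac
Fzd7: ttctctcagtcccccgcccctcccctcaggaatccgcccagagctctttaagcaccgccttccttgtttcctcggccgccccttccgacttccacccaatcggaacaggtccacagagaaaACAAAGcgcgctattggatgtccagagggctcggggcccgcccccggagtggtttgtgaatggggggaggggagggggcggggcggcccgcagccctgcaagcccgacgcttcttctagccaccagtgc
Wnt4: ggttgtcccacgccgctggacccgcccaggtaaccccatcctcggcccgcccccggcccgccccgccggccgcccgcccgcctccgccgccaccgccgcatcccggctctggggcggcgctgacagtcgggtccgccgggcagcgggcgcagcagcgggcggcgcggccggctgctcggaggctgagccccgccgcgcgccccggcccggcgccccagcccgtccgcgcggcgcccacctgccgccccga
Fzd4: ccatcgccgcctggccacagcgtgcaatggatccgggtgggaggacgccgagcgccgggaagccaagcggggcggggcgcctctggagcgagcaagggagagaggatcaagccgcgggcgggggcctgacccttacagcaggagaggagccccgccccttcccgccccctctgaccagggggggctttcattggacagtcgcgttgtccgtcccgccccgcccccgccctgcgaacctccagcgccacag
In Fzd1 the matches began 242 and 37 bases before the start, and in Fzd7 the match began 129 bases before it, whereas neither the Wnt4 nor the Fzd4 window held these letters. For Fzd1 and Fzd7, unlike Wnt4 and Fzd4, the first bases after the RefSeq start lay in no GENCODE transcript of the gene. These distances thus rest on RefSeq alone. The windows differed in base composition, since G and C made up 51.2% of the Fzd1 window, 65.2% of Fzd7, 72.8% of Fzd4 and 85.2% of Wnt4, with 12, 17, 25 and 44 CpG dinucleotides.

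RefSeq promoters were matched for 28 of the 45 members, with 31 windows in all. The letters were found in 6 windows (19.4%), against 22.1% of the promoters of all genes tested. Besides Fzd1 and Fzd7, these windows belonged to Dkk1, Dkk2, Wnt5b and Wnt11. The called members with a window that is not shown, Sfrp2, Sfrp5, Wnt2 and Wnt2b, held no match. Dkk1, an inhibitor that binds Lrp5 and Lrp6 and is a known target of β-catenin, held 3 matches, a number reached by 0.414% of tested promoters. As for Fzd1 and Fzd7, the first bases after its RefSeq start lay in no GENCODE transcript of the gene. The median G and C content was 69.2% in the member windows against 58.8% in those of all genes tested, and the median number of CpG dinucleotides was 22 against 14. A match is only a run of letters, and its absence from 250 bases says nothing of sites elsewhere.

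Levels between genes were compared as CPM per kilobase of the longest GENCODE transcript, averaged over all 15 samples. The highest levels were those of 3 Frizzled receptors, Fzd6 at 28.7, Fzd1 at 24.9 and Fzd7 at 24.9 CPM per kilobase, while the other 7 lay between 1.78 for Fzd9 and 7.17 for Fzd2. Wnt4 led the ligands at 13.5, followed by Wnt10a at 11.9 and Wnt3 at 10.8, all of which are expressed in epidermis and hair follicle. Lrp6 stood at 12.8 and Lrp5 at 7.98. Among the inhibitors, Dkk3 was highest at 23.4, and R-spondins were scarce, from 4.13 for Rspo1 to 0.338 for Rspo2. Axin2, a scaffold of the complex that degrades β-catenin and itself a target of the pathway, stood at 13.0. In normal skin alone the order differed, with Sfrp4 highest at 19.4, followed by Sfrp2 and Fzd7 at 18.9 CPM per kilobase. There Dkk3 stood at 13.7 and Fzd6 at 13.5, and Wnt3 led the ligands at 8.88. The 6 members that were not tested never exceeded 12 reads, except for Wnt8a, which had 61 reads in replicate 1 of the acellular 15 mm group and at most 3 in any other sample.

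**Figure D1:**
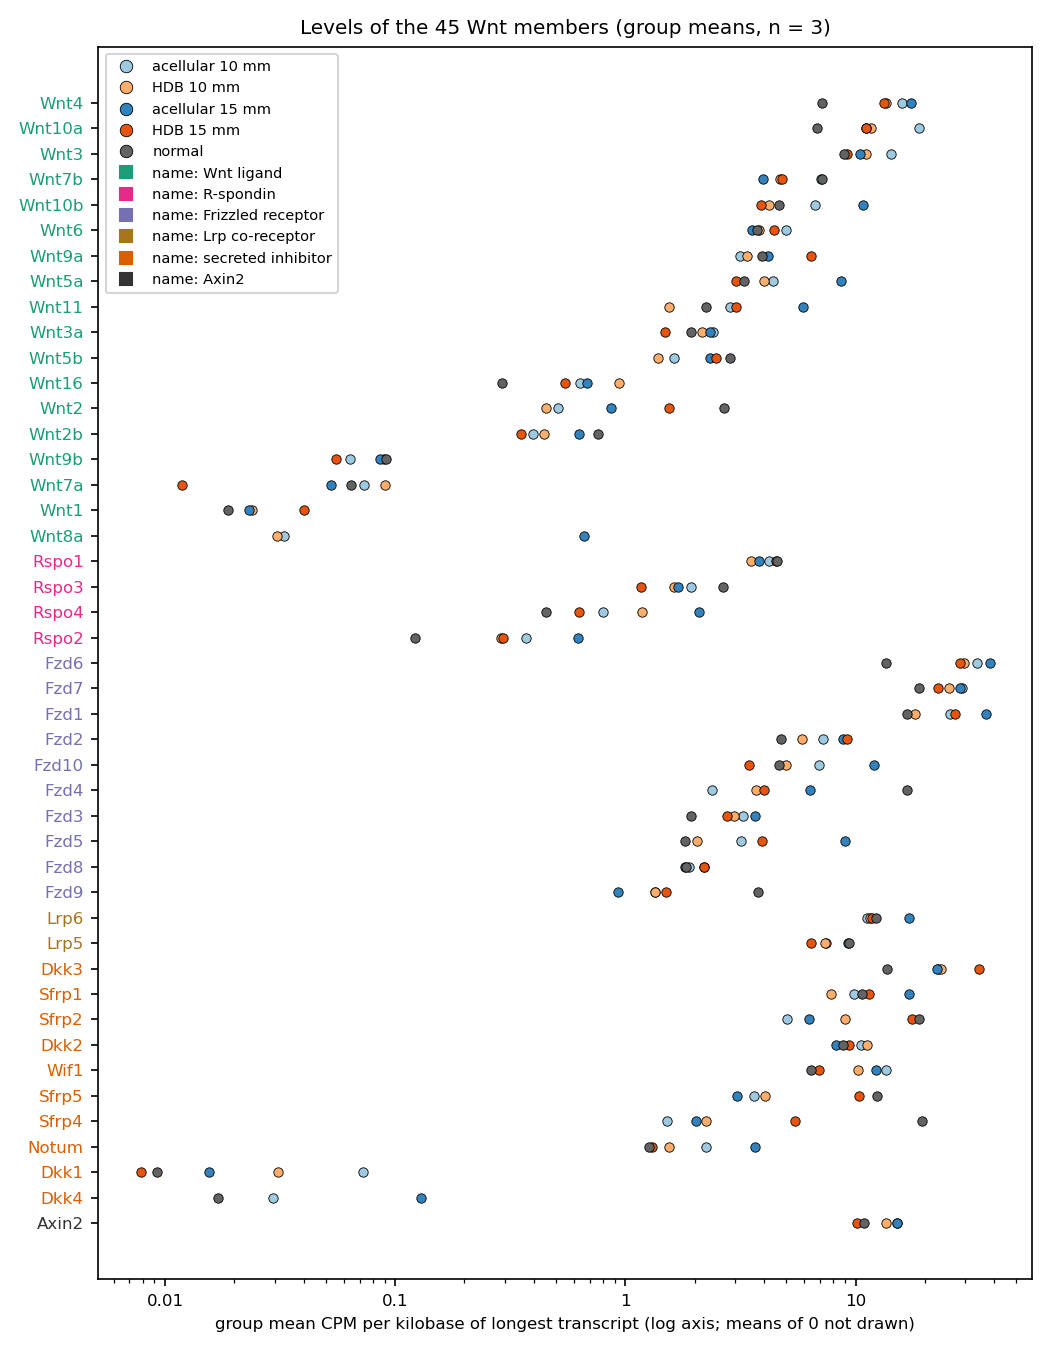
Level of each of the 45 genes, as group mean CPM per kilobase of the longest transcript (horizontal log axis, n = 3 samples a group), ordered within each role by the median over samples; group means of 0 are not drawn. Fzd6, Fzd7, Fzd1 and Dkk3 lie farthest to the right, while Fzd4, Fzd9 and Sfrp4 have their normal skin mean to the right of all 4 wound means.

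The first comparison asked how the pathway in healed skin, averaged over the 4 wound groups, differed from normal skin. Most Frizzled receptors that passed the test were higher in wounds and Fzd4 was lower, the ligands Wnt4 and Wnt10a rose while Wnt2 and Wnt2b fell, and 3 secreted Frizzled-related proteins fell. With edgeR's quasi-likelihood test and Benjamini-Hochberg adjustment over all genes, 14 of the 39 members were called at an adjusted p under 0.05 (35.9%, against 30.9% of all genes tested). Of these, 8 were higher (20.5%, against 14.2% of all genes) and 6 were lower (15.4%, against 16.7%). The share called was thus near that of all genes. DESeq2 called 17 members, against 40.1% of all genes. The median log2 fold change of the 39 members was 0.29 and that of all genes was 0.045. In bulk tissue, fewer cells of a type and less RNA per cell cannot be told apart, which touches every result below.

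**Figure D2:**
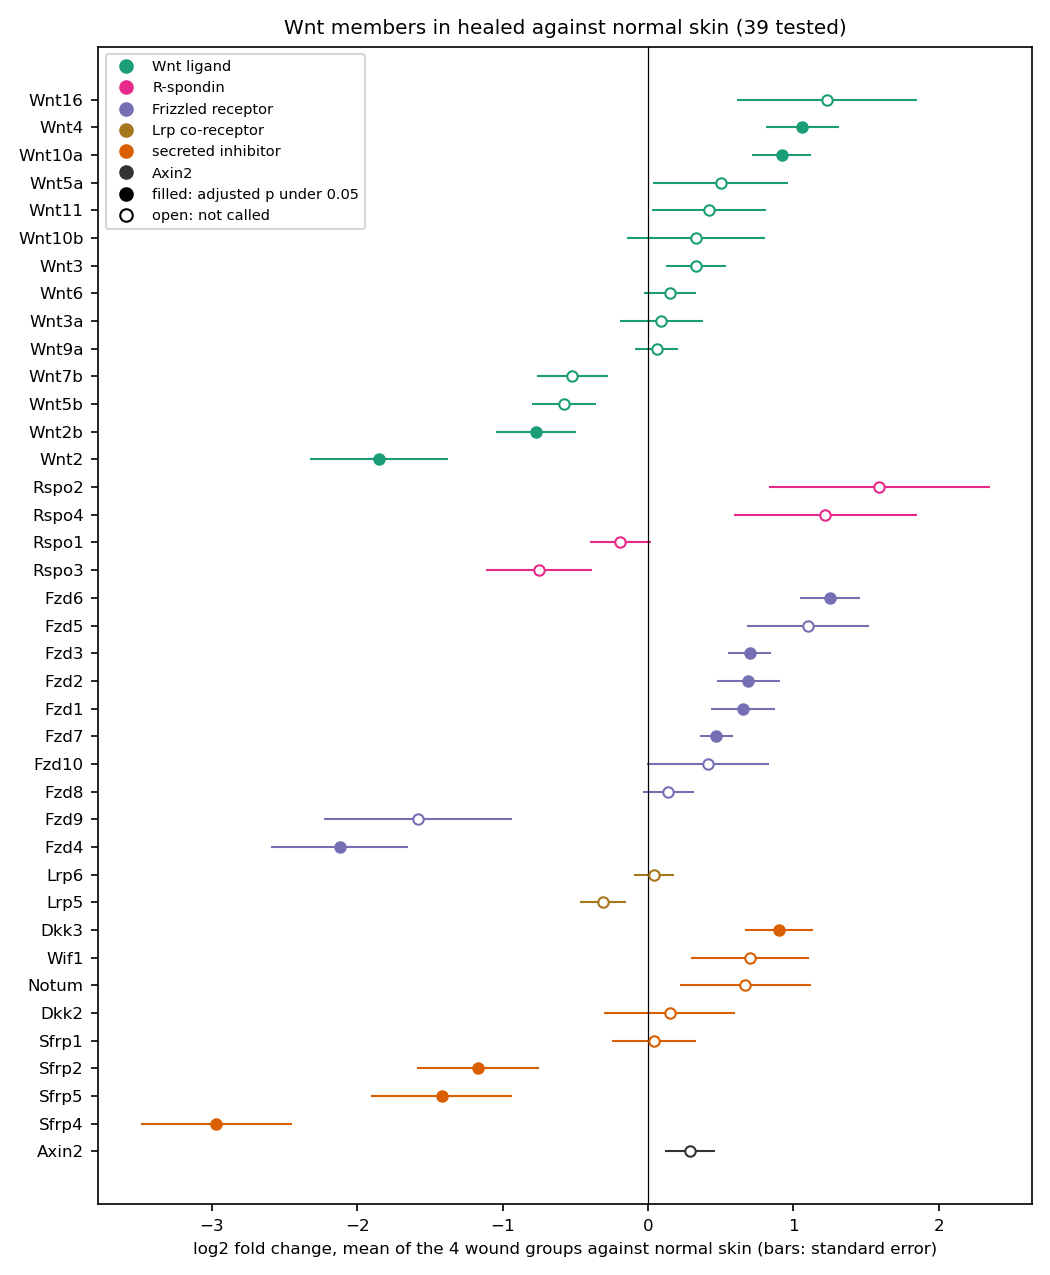
Log2 fold change of the 39 tested genes (horizontal axis) between the mean of the 4 wound groups and normal skin, with standard errors as bars, grouped by role; filled points have an adjusted p under 0.05. The 8 filled points to the right of 0 include 5 Frizzled receptors, and Sfrp4 at -2.97 is the farthest to the left.

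Of the 18 Wnt ligands, 14 were tested, of which 2 rose, 2 fell and 10 did not pass the test. Wnt4, a ligand of the epidermis and the hair follicle, was at 35.3, 26.3 and 28.6 CPM in replicates 1 to 3 of normal skin, 67.3, 69.2 and 63.8 in acellular 10 mm, 45.2, 68.8 and 56.9 in HDB 10 mm, 111, 61.6 and 46.8 in acellular 15 mm, and 71.6, 37.9 and 58.1 in HDB 15 mm wounds. All 12 wound samples were above all 3 normal samples. The rise was 1.06 on the log2 scale (SE 0.252, adjusted p = 0.00988), or 2.09-fold. Reads of Wnt4 were partly shared out among transcripts of several genes, as its decimal counts in 8 samples show.

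Wnt10a, a ligand needed for normal hair, teeth and sweat glands, was at 22.3, 13.1 and 15.0 CPM in normal skin, 49.3, 53.0 and 38.0 in acellular 10 mm, 26.6, 31.9 and 28.3 in HDB 10 mm, 31.4, 21.1 and 29.9 in acellular 15 mm, and 30.7, 19.6 and 31.7 in HDB 15 mm wounds. The acellular 10 mm samples were the 3 highest of all, and only 1 sample of each 15 mm group lay within the normal range. Wnt10a rose by 0.92 (SE 0.202, adjusted p = 0.00735).

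Wnt2, a ligand of mesenchymal tissues, had 2.81, 7.90 and 7.44 CPM in normal skin, 0.913, 1.12 and 1.40 in acellular 10 mm, 1.18, 0.861 and 0.999 in HDB 10 mm, 4.36, 0.583 and 0.902 in acellular 15 mm, and 1.37, 3.94 and 5.08 in HDB 15 mm wounds. Both 10 mm groups lay below every normal sample, whereas 1 acellular and 2 HDB samples of 15 mm lay within the normal range. It fell by 1.85 on the log2 scale (SE 0.477, adjusted p = 0.0139). Its close relative Wnt2b had 2.67, 2.74 and 2.15 CPM in normal skin, 1.26, 1.24 and 1.46 in acellular 10 mm, 1.95, 0.968 and 1.5 in HDB 10 mm, 1.53, 1.57 and 3.18 in acellular 15 mm, and 1.43, 1.27 and 0.790 in HDB 15 mm wounds. A single wound sample, replicate 3 of the acellular 15 mm group, was above the normal range. Wnt2b fell by 0.77 (SE 0.274, adjusted p = 0.0497), a call at the edge of the threshold that was lost in 16 of 20 alternative settings. The other 10 ligands had log2 fold changes from -0.58 for Wnt5b (SE 0.221, adjusted p = 0.064) to 1.23 for Wnt16 (SE 0.621, adjusted p = 0.146). Wnt5b was called by DESeq2, and by edgeR without acellular 15 mm replicate 2 or HDB 10 mm replicate 1. Wnt16 was called without acellular 15 mm replicate 1 and Wnt7b without acellular 15 mm replicate 3.

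All 10 Frizzled receptors were tested, and 5 rose, 1 fell and 4 did not pass the test. Fzd6 (chr15:39006149-39038192), known for orienting hair follicles, was at 63.1, 52.6 and 59.7 CPM in normal skin, 169, 135 and 131 in acellular 10 mm, 110, 155 and 118 in HDB 10 mm, 205, 175 and 115 in acellular 15 mm, and 147, 84.1 and 140 in HDB 15 mm wounds. Even the lowest wound sample was above the highest normal one. The rise of 1.25 (SE 0.208, adjusted p = 0.00237), or 2.38-fold, had the smallest p of the 39 members, and Fzd6 was also called in each of the 4 wound groups on its own. An annotated gene overlaps exons of Fzd6 on the opposite strand, and since no strand-marking step is described for the libraries, reads of both cannot be told apart. The same holds for Axin2, Fzd5, Notum, Rspo3, Sfrp2, Wnt5a, Wnt7b and Wnt11.

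Fzd3, its partner in planar polarity, was at 28.6, 20.3 and 24.7 CPM in normal skin, 48.0, 31.7 and 43.7 in acellular 10 mm, 38.3, 36.5 and 38.0 in HDB 10 mm, 49.3, 51.7 and 38.1 in acellular 15 mm, and 36.2, 30.2 and 39 in HDB 15 mm wounds. It too was above the normal range in all 12 wound samples, and it rose by 0.70 (SE 0.148, adjusted p = 0.0061). Fzd7, a receptor that works through β-catenin in many stem cell settings, was at 87.7, 82.1 and 87.6 CPM in normal skin, 149, 117 and 128 in acellular 10 mm, 117, 116 and 114 in HDB 10 mm, 142, 134 and 109 in acellular 15 mm, and 112, 82.4 and 114 in HDB 15 mm wounds. Only replicate 2 of HDB 15 mm fell within the normal range. The rise was small but even, at 0.47 (SE 0.116, adjusted p = 0.0115).

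Fzd1 was at 68.4, 71.2 and 70.1 CPM in normal skin, 128, 89.9 and 105 in acellular 10 mm, 78.0, 69.4 and 81.8 in HDB 10 mm, 176, 201 and 86.6 in acellular 15 mm, and 128, 80.9 and 131 in HDB 15 mm wounds. It was higher in 11 of the 12 wound samples than in any normal sample, with a rise of 0.65 (SE 0.22, adjusted p = 0.0415). The call was lost in 10 of 21 alternative settings. Fzd2 was at 13.5, 19.9 and 18.6 CPM in normal skin, 34.1, 20.3 and 25.2 in acellular 10 mm, 23.8, 18.6 and 22.3 in HDB 10 mm, 29.3, 39.8 and 27.7 in acellular 15 mm, and 35.7, 22.4 and 42.4 in HDB 15 mm wounds. Here also 11 of 12 wound samples lay above the normal range, and the rise was 0.69 (SE 0.215, adjusted p = 0.0299). Fzd1, Fzd2 and Fzd7 belong to one closely related subfamily of Frizzled receptors. Markers of epithelial cells moved in both directions. Of the basal epidermis markers 3 of 5 were called higher, with a summed level of 4520 to 6200 CPM in normal skin and 5770 to 15900 in wounds. Of the follicle stem cell and outer root sheath markers 3 of 8 were called higher and 2 lower (1970 to 2310 and 1630 to 4870 CPM), and of the sebaceous gland markers 2 of 5 were called higher (3850 to 8200 and 4170 to 13600 CPM). Of the suprabasal markers 2 of 5 were called lower. None of these markers was at 0, and the part of these cells in the rises was not tested.

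Fzd4 (chr7:89404366-89410110) moved the other way. This receptor, which also binds Norrin, is known for its place on the endothelium of blood vessels. It was at 111, 118 and 107 CPM in normal skin, 12.3, 11.8 and 23.6 in acellular 10 mm, 40.2, 6.72 and 27.5 in HDB 10 mm, 28.6, 59.8 and 39.5 in acellular 15 mm, and 27.6, 47.9 and 5.19 in HDB 15 mm wounds. No wound sample reached the normal range, although the wound samples spread widely among themselves, from 5.19 to 59.8 CPM. Fzd4 fell by 2.12 (SE 0.471, adjusted p = 0.00755), or 4.33-fold. Its counts held decimals in 12 samples. All 5 of 5 endothelial markers were called lower in wounds, and their summed level was 433 to 485 CPM in normal skin and 82.3 to 340 in wounds. Skeletal muscle markers were lower as well (ranges given above, 2 of 7 called). No endothelial or muscle marker was at 0 in any sample, and the part of either tissue in the fall of Fzd4 was not tested. Among the receptors that did not pass, Fzd5 had a log2 fold change of 1.10 (SE 0.422, adjusted p = 0.0651) and Fzd9 of -1.58 (SE 0.647, adjusted p = 0.0799). Both were called by DESeq2.

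**Figure D3:**
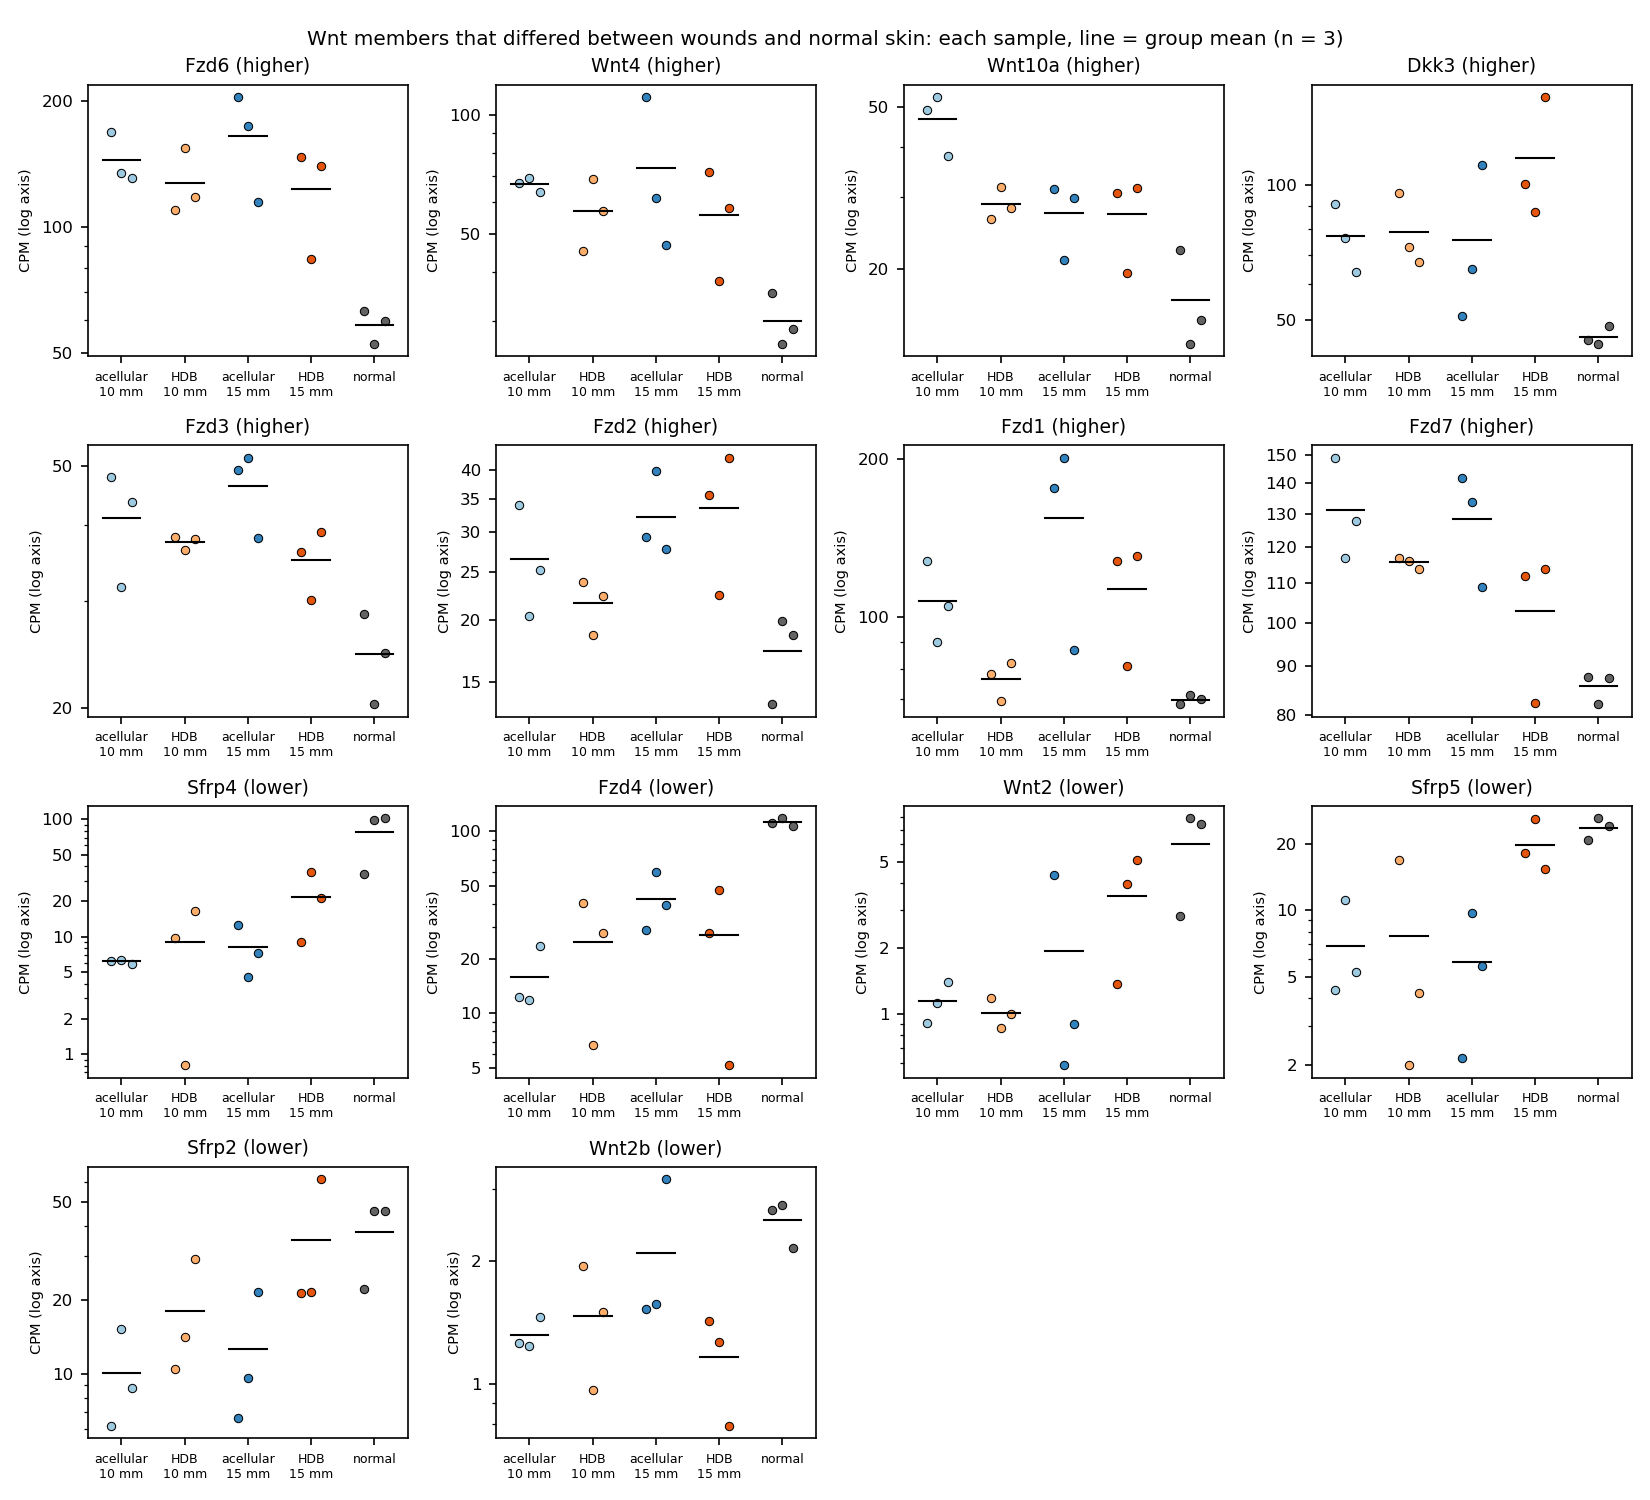
CPM of the 14 genes called between wounds and normal skin, by group (vertical log axis, each point 1 sample, lines are group means, n = 3). In Fzd6, Fzd3, Wnt4 and Dkk3 all 12 wound points lie above the 3 normal points, and in Fzd4 they all lie below.

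The co-receptors did not pass the test. Lrp6 was at 102, 123 and 122 CPM in normal skin, 103, 88.1 and 124 in acellular 10 mm, 130, 88.1 and 108 in HDB 10 mm, 175, 176 and 128 in acellular 15 mm, and 111, 118 and 104 in HDB 15 mm wounds. The acellular 15 mm samples were above the normal range and the other groups overlapped it, and the average over wounds gave 0.04 (SE 0.137, adjusted p = 0.827). Lrp5 gave -0.31 (SE 0.155, adjusted p = 0.145).

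None of the 4 R-spondins was called either. Rspo1, the most abundant, was at 6.46, 8.97 and 9.66 CPM in normal skin, 5.88, 6.01 and 11.3 in acellular 10 mm, 7.34, 5.33 and 6.77 in HDB 10 mm, 7.70, 6.47 and 6.79 in acellular 15 mm, and 8, 7.21 and 9.60 in HDB 15 mm wounds, with overlap throughout (-0.19, SE 0.21, adjusted p = 0.511). Rspo2 and Rspo4 had log2 fold changes of 1.59 and 1.22 and Rspo3 of -0.75, with adjusted p of 0.126, 0.154 and 0.128. Rspo3 was called without acellular 15 mm replicate 1 and Rspo4 without replicate 2 of that group.

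Of the 10 secreted inhibitors 8 were tested, of which 1 rose, 3 fell and 4 did not pass. The 3 that fell were all secreted Frizzled-related proteins, which share the Wnt-binding domain of the receptors. Sfrp4 (chr13:19623175-19632825) was at 34.4, 99.1 and 102 CPM in normal skin, 6.28, 6.40 and 5.84 in acellular 10 mm, 9.76, 0.807 and 16.7 in HDB 10 mm, 12.7, 4.55 and 7.22 in acellular 15 mm, and 8.97, 35.8 and 21.3 in HDB 15 mm wounds. All wound samples but replicate 2 of HDB 15 mm lay below the normal range, and the fall of 2.97 (SE 0.52, adjusted p = 0.00297), or 7.84-fold, was the largest among the 39 members.

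Sfrp5 was at 20.8, 26.0 and 23.9 CPM in normal skin, 4.34, 11.1 and 5.26 in acellular 10 mm, 16.8, 1.99 and 4.22 in HDB 10 mm, 2.15, 9.74 and 5.57 in acellular 15 mm, and 18.1, 25.9 and 15.3 in HDB 15 mm wounds. Only replicate 2 of HDB 15 mm lay within the normal range, and all other wound samples were below it. It fell by 1.42 (SE 0.483, adjusted p = 0.0425), a call that was also lost in 10 of 21 settings. Sfrp2, an abundant product of dermal fibroblasts, was at 22.1, 45.7 and 45.8 CPM in normal skin, 6.16, 15.2 and 8.82 in acellular 10 mm, 10.5, 14.2 and 29.2 in HDB 10 mm, 6.63, 9.68 and 21.6 in acellular 15 mm, and 21.4, 21.6 and 61.8 in HDB 15 mm wounds. The acellular samples all lay below the normal range, while single HDB samples lay within or above it. Sfrp2 fell by 1.17 (SE 0.417, adjusted p = 0.0494), and this call was lost in 14 of 21 alternative settings, among them the one without acellular 15 mm replicate 1 (-1.09). In adipocytes, which are known to express Sfrp5, 3 of 5 markers were called lower in wounds, with a summed level of 2710 to 6080 CPM in normal skin and 411 to 5860 in wounds. For dermal fibroblasts 1 of 7 markers was called lower, with 7270 to 24000 CPM in normal skin and 3450 to 18400 in wounds. No marker of either list was at 0, and their part in the fall of the Sfrp genes was not tested.

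Dkk3, a divergent Dickkopf protein for which binding to Lrp5 and Lrp6 is not established, was the only inhibitor that rose. It was at 45, 44.2 and 48.4 CPM in normal skin, 90.9, 76.2 and 63.9 in acellular 10 mm, 96.2, 72.9 and 67.4 in HDB 10 mm, 51.0, 65.0 and 111 in acellular 15 mm, and 101, 87.3 and 158 in HDB 15 mm wounds. All wound samples were above all normal samples, by 0.90 on the log2 scale (SE 0.236, adjusted p = 0.0153). Sfrp1, Dkk2, Notum and Wif1 had log2 fold changes of 0.04, 0.15, 0.67 and 0.70 and were not called.

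Axin2, the usual readout of β-catenin signaling, was at 48.5, 45.5 and 45.2 CPM in normal skin, 65.8, 63.1 and 65.0 in acellular 10 mm, 54.7, 58.8 and 60.7 in HDB 10 mm, 87.1, 37.6 and 67.8 in acellular 15 mm, and 44.3, 38.7 and 45.7 in HDB 15 mm wounds. Both 10 mm groups were above the normal range in every sample and HDB 15 mm was within or below it, and the average over wounds was not called (0.29, SE 0.173, adjusted p = 0.216). It was called without acellular 15 mm replicate 2, at 37.6 CPM (0.36).

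Across the module, 4 members (10.3%) had all 12 wound samples above all 3 normal samples, namely Dkk3, Fzd3, Fzd6 and Wnt4, against 9.86% of all genes tested. Only Fzd4 (2.56%) had them all below, against 11.1% of all genes. Of the 14 calls, those of Fzd3, Fzd4, Fzd6 and Sfrp4 were kept in all 21 alternative fits, which do not include the minimum change of 1 on the log2 scale that Fzd3 at 0.70 does not reach. The calls of Wnt2, Wnt4 and Wnt10a were lost without normal replicate 2 or 3, that of Fzd7 without normal replicate 2, and those of Dkk3 and Fzd2 on leaving out any 1 of the normal samples. The count rested on the normal skin samples, since it was 8, 4 and 5 without replicates 1, 2 and 3 of normal skin. Without replicate 1 of the acellular 15 mm group it was 15.

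Each wound group was next set against normal skin on its own, and since the 4 comparisons share the 3 normal samples they are not independent. In acellular 10 mm wounds 9 members were called (23.1%, against 20.3% of all genes), 5 higher (12.8%, against 9.77%) and 4 lower (10.3%, against 10.6%). Wnt10a had the smallest p there and rose by 1.47 (SE 0.244, adjusted p = 0.00544), while Sfrp4 fell by 3.67 (SE 0.841, adjusted p = 0.0143) and Fzd4 by 2.82 (SE 0.717, adjusted p = 0.02). The other calls were Fzd3, Fzd6, Fzd7 and Wnt4, which were higher, and Sfrp2 and Wnt2, which were lower. The count was 2 without acellular 10 mm replicate 1 and 3 without normal replicate 2 or 3, and DESeq2 called 14 (against 33% of all genes).

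In acellular 15 mm wounds 12 members were called (30.8%, against 30.2% of all genes), 10 higher (25.6%, against 17.6%) and 2 lower (5.13%, against 12.6%). Here 6 of the 10 Frizzled receptors rose, with Fzd5, a receptor expressed in epithelia, at 2.31 (SE 0.513, adjusted p = 0.00878). The others were Fzd1, Fzd2, Fzd3, Fzd6 and Fzd7, and Rspo4, Wnt4, Wnt10a and Wnt11 rose as well. In replicate order Fzd5 was at 88.3, 81.4 and 16.8 CPM, against 11.9 to 13.6 in normal skin. Wnt11 was at 29.9, 25.9 and 5.52 CPM, against 6.25 to 9.37, so that replicate 3 lay below the normal range. Sfrp4 and Sfrp5 fell. Without the sample that stood apart the count was also 12, but 4 of these calls were lost. Rspo4 went from 2.2 to 0.72, Wnt11 from 1.41 to 1.03, Wnt10a from 0.71 to 0.60 and Sfrp5 from -2.02 to -1.62. The count was 19 without replicate 3 of this group and 7 without normal replicate 3. DESeq2 called 22 (against 40.3% of all genes).

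In HDB 10 mm wounds 5 members were called (12.8%, against 12.3% of all genes), namely Fzd6 and Fzd3, which were higher (5.13%, against 6.1%), and Sfrp4, Wnt2 and Wnt5b, which were lower (7.69%, against 6.23%). Wnt5b, a ligand that mostly acts without β-catenin, fell by 1.04 (SE 0.295, adjusted p = 0.0408). No call was left without HDB 10 mm replicate 2 or 3 or without any single normal sample, while DESeq2 called 11 (against 24.8% of all genes). In HDB 15 mm wounds only Dkk3 and Fzd6 were called (5.13%, against 5.18% of all genes), both higher (5.13%, against 2.67%) and none lower (against 2.51%), by 1.33 (SE 0.285, adjusted p = 0.0302) and 1.08 (SE 0.243, adjusted p = 0.0336). These were lost without replicate 1 or 3 of HDB 15 mm or any single normal sample, and also with the replicate block (1.31 and 1.07), whereas 5 members were called without HDB 15 mm replicate 2 and 10 by DESeq2 (against 18.7% of all genes). Such differences in count do not show that the groups differ from each other, and wounds of 10 mm and 15 mm were not tested against each other within a treatment.

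The question of the study, whether beads with MSCs changed the healing skin, was addressed by setting HDB against acellular wounds of the same size. With all samples in the fit, edgeR called no member at 10 mm, at 15 mm or over both sizes. DESeq2 called 6 at 15 mm and Fzd10 over both sizes. With edgeR, 0 of 39 members passed at 10 mm (against 0% of all genes), where 1 member had an unadjusted p under 0.05 (2.56%, against 3.53% of all genes) and DESeq2 called 0 (against 0.111%). The 3 members with the smallest p were Wnt10a, Fzd1 and Wnt7b, a ligand of the epidermis, with log2 fold changes of -0.69 (SE 0.239), -0.49 (SE 0.266) and -0.59 (SE 0.319). Their adjusted p was 1 in each case.

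At 10 mm, the 3 HDB samples lay below all 3 acellular samples for 10 of the 39 members (25.6%, against 6.47% of all genes), namely Axin2, Fzd1, Fzd7, Fzd10, Wnt3, Wnt6, Wnt7b, Wnt10a, Wnt10b and Wnt11. As examples chosen after the values were seen, Wnt3 had 44.9, 43.6 and 43.7 CPM in acellular and 32.2, 37.7 and 32.8 CPM in HDB samples. Wnt7b had 27.8, 22.3 and 22.0 CPM in acellular and 13.4, 17.4 and 17.2 CPM in HDB samples. Wnt16 alone was above (2.56%, against 4.52%), at 2.00, 1.80 and 2.45 CPM in acellular and 2.66, 3.50 and 3.05 in HDB samples. Markers of the follicle stem cells and outer root sheath were also lower throughout in HDB 10 mm wounds, with a summed 1990 to 2980 CPM against 3380 to 4870 in acellular ones, and dermal fibroblast markers were higher throughout, with 8980 to 11800 CPM against 3540 to 5450. No marker of either list was at 0, and the part of these cells in the lower Wnt genes was not tested. Both lists were named after the values were seen. Samples of every other marker list overlapped, as in basal epidermis (8110 to 13400 CPM in HDB against 10700 to 15900 in acellular wounds).

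At 15 mm, 0 of 39 members passed with edgeR (against 2.93% of all genes), although 16 had an unadjusted p under 0.05 (41%, against 23.2% of all genes) and DESeq2 called 6 (against 14.7% of all genes). The 3 with the smallest p were Fzd10, Wnt9a and Lrp6. Fzd10, a receptor with a narrow pattern of expression, was at 85.4, 14.1 and 17.6 CPM in acellular and 14.3, 9.64 and 9.43 CPM in HDB samples, with a log2 fold change of -1.81 (SE 0.529, adjusted p = 0.0786) that was -0.51 without acellular replicate 1. Wnt9a was at 12.1, 17 and 12.4 CPM in acellular and 20.3, 20.2 and 23.0 CPM in HDB samples, which did not overlap (0.62, SE 0.187, adjusted p = 0.0864). Lrp6, with 175, 176 and 128 CPM in acellular and 111, 118 and 104 CPM in HDB samples, did not overlap either (-0.52, SE 0.174, adjusted p = 0.105), but the value was -0.24 with the trend over transcript length removed.

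Of the 6 members that were lower in wounds than in normal skin, Sfrp2, Sfrp4, Sfrp5 and Wnt2 had mean levels closer to normal skin in HDB than in acellular wounds of 15 mm, and Fzd4 and Wnt2b had means farther from it. Fzd4 averaged 42.6 ± 15.9 CPM (SD, n = 3) in acellular and 26.9 ± 21.4 CPM in HDB wounds, and Wnt2b averaged 2.1 ± 0.943 and 1.16 ± 0.332 CPM, and neither difference was called (-0.67, SE 0.674 and -0.85, SE 0.368, adjusted p = 0.578 and 0.192). The Sfrp genes are given in more detail, a choice made after their values were seen. Sfrp5 averaged 5.82 ± 3.80 CPM (SD, n = 3) in the acellular 15 mm group, against 19.8 ± 5.51 with HDB and 23.6 ± 2.61 in normal skin. Sfrp2 averaged 12.6 ± 7.88, 35.0 ± 23.3 and 37.9 ± 13.6 CPM, and Sfrp4 averaged 8.17 ± 4.18, 22.0 ± 13.4 and 78.6 ± 38.3 CPM in the same order. None of these differences of the Sfrp genes between HDB and acellular wounds was called by edgeR on all samples. The log2 fold changes were 1.76 (SE 0.687, adjusted p = 0.155) for Sfrp5, 1.47 (SE 0.579, adjusted p = 0.159) for Sfrp2 and 1.43 (SE 0.778, adjusted p = 0.29) for Sfrp4. DESeq2 called Sfrp5 (adjusted p = 0.0425). Without HDB 15 mm replicate 3, at 61.8 CPM, Sfrp2 gave 0.77, and without HDB 15 mm replicate 2, at 35.8 CPM, Sfrp4 gave 0.89. Without acellular 15 mm replicate 3, Sfrp2 gave 2.10 and was called by edgeR (adjusted p = 0.0453). Over the alternative settings Sfrp4 reached 1.90, and Sfrp5 lay between 1.37 and 2.35. At 10 mm the log2 fold changes were 0.15 for Sfrp5, 0.84 for Sfrp2 and 0.56 for Sfrp4, all with an adjusted p of 1. Over the alternative settings Sfrp2 lay between 0.30 and 1.26 at that size. Adipocyte markers summed to 1370, 1840 and 3960 CPM in acellular 15 mm and to 3850, 5860 and 1560 CPM in HDB 15 mm samples. Dermal fibroblast markers summed to 3450, 3840 and 14700 CPM in acellular and to 8160, 15400 and 18400 CPM in HDB samples of 15 mm. The part of either in the Sfrp values was not tested.

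Axin2 had a log2 fold change of -0.58 at 15 mm (SE 0.215, adjusted p = 0.137), which was -0.30 without acellular 15 mm replicate 1, and -0.15 at 10 mm (SE 0.214, adjusted p = 1). Samples of HDB and acellular wounds did not overlap at 15 mm for 5 members. Sfrp5 and Wnt9a were higher in HDB (5.13%, against 8.55% of all genes), and Lrp5, Lrp6 and Wnt2b were lower (7.69%, against 11.7%). The members called by DESeq2 were Fzd10, Lrp6, Notum, Sfrp5, Wnt5a and Wnt9a. With edgeR, 8 members were called without acellular 15 mm replicate 3 (Dkk3, Fzd1, Fzd5, Fzd10, Lrp6, Notum, Sfrp2 and Wnt11), 3 without acellular 15 mm replicate 2 (Axin2, Fzd10 and Wnt9a) and 0 without replicate 1. The shares of all genes in these fits are not given, so the counts do not set the members apart from other genes.

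**Figure D4:**
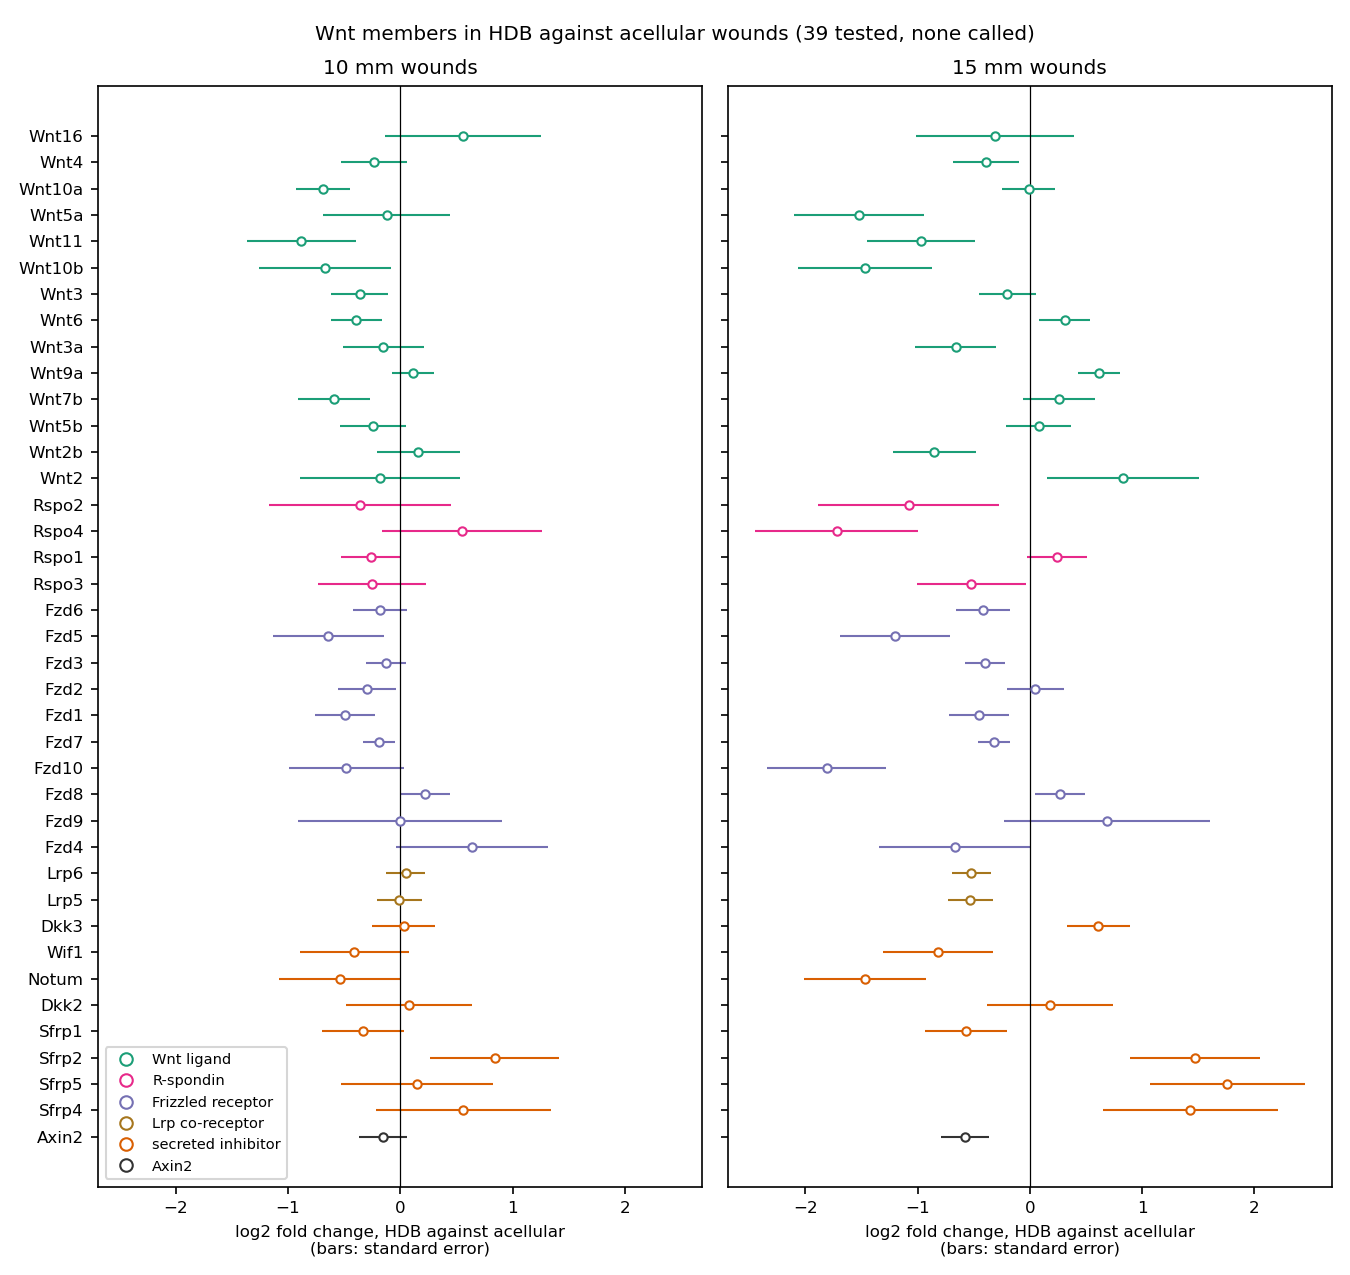
Log2 fold change of the 39 tested genes (horizontal axis) between HDB and acellular wounds of 10 mm (left) and 15 mm (right), with standard errors as bars. No point is called by edgeR. Most points lie left of 0, and Sfrp2, Sfrp4 and Sfrp5 lie right of 0 at both sizes.

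Over both sizes, 0 of 39 members passed with edgeR (against 0% of all genes), 10 had an unadjusted p under 0.05 (25.6%, against 15.8% of all genes), and DESeq2 called 1, Fzd10 (against 2.94% of all genes). The smallest p belonged to Fzd10 (-1.14, SE 0.367), Sfrp2 (1.15, SE 0.408) and Wnt9a (0.36, SE 0.133), with adjusted p of 0.261, 0.261 and 0.267. Without acellular 15 mm replicate 1, Fzd10 gave -0.49. Without acellular 15 mm replicate 3, Fzd1, Fzd5 and Wnt11 were called. A test of whether the effect of HDB differed between the sizes also gave 0 members (against 0% of all genes), with 3 at an unadjusted p under 0.05 (7.69%, against 13.4% of all genes) and 0 by DESeq2 (against 6.29%). These 3 were Lrp6 (-0.58, SE 0.245), Rspo4 (-2.27, SE 1.02) and Wnt6 (0.70, SE 0.316), with adjusted p of 0.33, 0.353 and 0.355. Without acellular 15 mm replicate 1, Rspo4 gave -0.79, and with the length trend removed Lrp6 gave -0.15 and Wnt6 0.42.

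Samples of the acellular 15 mm group differed among themselves. Replicate 1 of the acellular 15 mm group was the highest of all 15 samples for 15 of 39 members (38.5%, against 29.4% of all genes) and the lowest for 4 (10.3%, against 22.2%), so that it was extreme in 48.7% of members against 51.6% of all genes. Replicate 2 was the highest or lowest for 11 members (28.2%, against 7.23% of all genes). The members named next were chosen after their values were seen. Wnt5a, a ligand of the dermal papilla and of non-canonical signaling, was at 132 CPM in replicate 1 of acellular 15 mm and between 17.8 and 50.2 CPM in the other 14. Wnt10b, a ligand of the growing follicle, was at 66.6 against 8.15 to 24.8 CPM. Rspo4, an R-spondin known from nail formation, was at 11.3 against 0.758 to 3.50 CPM. Among tested members these stood highest over the rest in it, together with Fzd10 at 85.4 against 9.43 to 25.2 CPM.

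Of the 8 tested inhibitors 3 were highest in the same sample. Notum stood at 14.3 against 1.94 to 7.13 CPM, Wif1 at 57.0 against 11.2 to 43.0 CPM, and Sfrp1 at 111 against 26.0 to 72.3 CPM. Dkk2, in contrast, was at 4.82 CPM there and between 24.4 and 60.9 CPM elsewhere, and Wnt16, Wnt7b and Fzd8 were likewise lowest in it. Dkk3 was lower there (51 CPM) than in any other wound sample, and Sfrp2 (6.63 CPM) and Sfrp5 (2.15 CPM) were near the lowest of all samples, at 6.16 and 1.99 CPM. The hair shaft and matrix list, of which 11 of 12 markers were in the table and 7 were called higher in wounds, was at 16900 CPM in this sample and at 1380 and 45 CPM in the other acellular 15 mm samples. Krt33b, Krt86 and Krt25 of that list were at 0 in 6, 4 and 3 samples. The part of follicle growth stage or sampling in these values was not tested. Without this sample, the log2 fold change of HDB against acellular at 15 mm went from -1.52 to -0.25 for Wnt5a, from -1.72 to -0.23 for Rspo4, from -1.47 to 0.00 for Wnt10b and from -0.82 to 0.22 for Wif1.

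**Figure D5:**
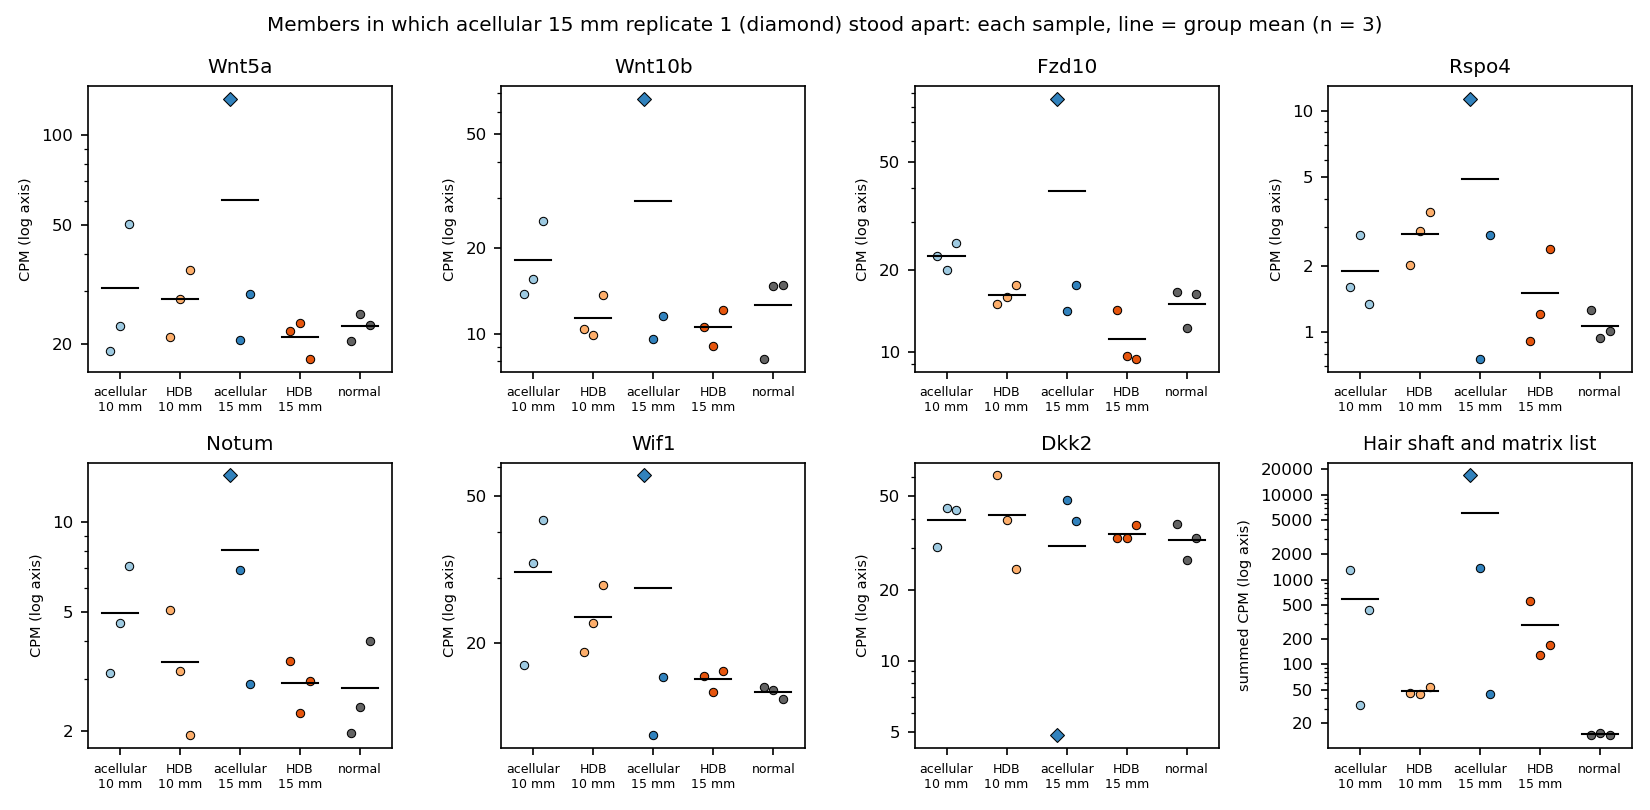
CPM of 7 members and summed CPM of the hair shaft and matrix markers, by group (vertical log axes, each point 1 sample, lines are group means, n = 3); the diamond is replicate 1 of the acellular 15 mm group. The diamond lies above all other samples except for Dkk2, where it lies below them at 4.82 CPM.

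Other genes of the pathway were taken from 7 lists of 56 genes, of which 54 were tested. Between wounds and normal skin 15 rose (27.8%, against 14.2% of all genes) and 5 fell (9.26%, against 16.7%). The counts of each list are small and are given as they stand. In Wnt secretion, 1 of 2 tested genes rose, Porcn (0.95, SE 0.261, adjusted p = 0.0178), the enzyme that adds the lipid to Wnts. Among R-spondin receptors and the ligases that remove Frizzled, 2 of 5 rose, namely Lgr5 (2.56, SE 0.448, adjusted p = 0.00296), a follicle stem cell marker, and Lgr4 (0.87, SE 0.229, adjusted p = 0.0148). Among non-canonical receptors and planar polarity genes 5 of 9 rose and none fell. Vangl1 (1.06, SE 0.139, adjusted p = 0.00112), Ptk7 (1.18, SE 0.238, adjusted p = 0.00505) and Prickle2 (0.62, SE 0.139, adjusted p = 0.00778) had the smallest p, and they act in the same polarity pathway as Fzd3 and Fzd6.

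In the destruction complex and its transducers 1 of 11 rose, Ctnnb1 (0.60, SE 0.185, adjusted p = 0.0292), which encodes β-catenin, while Btrc (-0.77, SE 0.145, adjusted p = 0.00407) and Dvl1 (-0.49, SE 0.137, adjusted p = 0.0195) fell. Of 8 nuclear factors 2 rose and 2 fell, with Pygo1 at -0.85, Tcf7l1 at -0.65, Pygo2 at 0.39 and Tcf7l2 at 0.45. Of 9 tested targets 2 rose, Cd44 (1.28, SE 0.156, adjusted p = 8.14e-04) and Myc (0.59, SE 0.171, adjusted p = 0.0228). Of 10 tested extracellular inhibitors named outside the rule 2 rose and 1 fell, with Sostdc1, an inhibitor of BMP and Wnt signals in epithelium, at 1.80 (SE 0.185, adjusted p = 3.33e-04), Tpbg at 0.92 (SE 0.171, adjusted p = 0.00389) and Dkkl1 at -2.21 (SE 0.338, adjusted p = 0.0017). Between HDB and acellular wounds at 15 mm, 2 of the 54 were called and both were lower (3.7%, against 2.35% of all genes), while DESeq2 called 19 (35.2%, against 14.7% of all genes). Celsr1, a polarity cadherin, gave -1.20 (adjusted p = 0.0495) and Apc, a scaffold of the destruction complex, gave -0.60 (adjusted p = 0.0339), and both calls were lost in 8 of 13 alternative settings, among them the one without acellular 15 mm replicate 1 (-0.75 for Celsr1 and -0.57 for Apc) and the one with the trend over transcript length removed (-0.88 and -0.25). For Apc they included the replicate block (log2 fold change -0.60, adjusted p = 0.0606, range over all settings 4.17e-05 to 0.464). At 10 mm none of the 54 was called, with 3 at an unadjusted p under 0.05 (5.56%, against 3.53% of all genes) and 0 by DESeq2.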

How the data were processed

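Poly(A) RNA of 15 skin samples (5 groups of 3) was sequenced. The authors deposited estimated counts per gene, made per the submitters' processing notes with HISAT2 2.0.4, Bowtie2 2.2.5 and RSEM 1.2.12 on GRCm38.p6, which share reads out among transcripts. The role of each tool, and any strand setting, is not given in the sources used here. Of 18929 genes, between 2074 and 2237 had a decimal count in a sample. Values were rounded to whole numbers. Total counts of 15840542 to 18404177 per sample limit what can be said of genes with few reads.

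Groups were compared with edgeR 4.0.16 (R 4.3.3, limma 3.58.1) by the quasi-likelihood test on 15369 genes that passed filterByExpr, with TMM scaling, 5 group means and Benjamini-Hochberg adjustment over all genes, called at 0.05. SE was taken as the size of the log2 fold change over the root of the F statistic. The procedure was tested on simulated data. CPM are counts scaled to a common library size after TMM. Cell type and pathway lists are sums or counts of genes written by hand. The gene symbol rule of the members uses no measured value, but it and the lists were chosen with earlier results of these data known. Values in every sample were given for members called between wounds and normal skin, and for the most abundant member of each role. Where no member was called, the 3 with the smallest p were named.

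Alternatives were DESeq2 1.42.0, no filter on low counts (18834 genes), a mean of at least 50 counts, a fit to the compared groups alone, a block for replicate number, removal of a trend with transcript length (15085 genes, spline with 4 degrees of freedom), both of these together, a minimum change of 1 on the log2 scale in either direction, and leaving out each sample. Replicate numbers carry no stated pairing. Deviations of same-numbered samples from their group means correlated over 0.1 in every pair for acellular and HDB 15 mm wounds (0.397, 0.167 and 0.183), and in no other pair of groups. Single values of other pairs were as large, such as 0.489 for replicate 1 of acellular 10 mm and HDB 15 mm wounds. Whether the numbers pair any samples therefore cannot be told. The values given are from the fit without a block, and for HDB against acellular wounds of 15 mm the blocked value is given where it ended a call.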

Additional observations from a re-analysis of the deposited data

How the results depend on the processing

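Leaving out 1 sample at a time gave 4 to 16 members called between wounds and normal skin, 2 to 9 for acellular 10 mm, 7 to 19 for acellular 15 mm, 0 to 7 for HDB 10 mm and 0 to 5 for HDB 15 mm against normal skin, 0 to 8 for HDB against acellular at 15 mm and 0 to 3 over both sizes. With a minimum change of 1 on the log2 scale, 7 members were called between wounds and normal skin. Against normal skin, DESeq2 called 14 and 22 members for acellular wounds of 10 mm and 15 mm and 11 and 10 for HDB wounds of these sizes, then 6 for HDB against acellular at 15 mm and 1 over both sizes. With only the groups compared in the fit, the first 4 counts were 20, 4, 13 and 9. HDB 10 mm gave 3 without the filter, and HDB 15 mm gave 4 with a mean of at least 50 counts. With the replicate block, 11 members were called between wounds and normal skin (Fzd1, Sfrp5 and Wnt2b were lost), 8 and 10 for acellular wounds of 10 mm and 15 mm, 2 and 0 for HDB wounds, and 0 for HDB against acellular. With the block and the length trend removed, HDB 10 mm gave 1 and HDB 15 mm gave 0. Apart from DESeq2, shares of all genes under these settings are not given. Such counts, here and above, do not set the members apart from other genes. For HDB against acellular at 15 mm, the block ended the call of Apc and changed no other call of the genes named.

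Directions reversed for Lrp6 between wounds and normal skin (-0.04 without normal replicate 1, and up to 0.08 without other samples) and, without acellular 15 mm replicate 1, for Wnt10b (0.00) and Wif1 (0.22) in HDB against acellular at 15 mm, where leaving out other samples gave values down to -1.89 and -1.20. None of these was called. Of 1527 values of 92 gene results under alternatives, 1286 kept direction and call, 215 lost the call, 23 gained one and 3 reversed. The cause of these shifts was not tested. With 3 samples a group, members with few reads such as Rspo2 and Wnt16 have wide errors.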
